A study of Mus musculus with 31 samples.

Results

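Panc02 tumor spheroids cultured in medium conditioned by unpolarized macrophages (M0-CM) were compared with Panc02 spheroids cultured in control medium (Ctrl). The comparison holds 6 of the 31 RNA sequencing samples of the study, the 3 labelled M0 and the 3 labelled control, and the members were chosen by these labels alone. Panc02 is a murine pancreatic adenocarcinoma line, and all 6 samples were WT spheroids grown in Matrigel, a gel of basement membrane proteins. The table that holds them also holds 3 samples in medium of M1 macrophages (M1-CM), which had been stimulated with IFNγ and lipopolysaccharide, and the remaining 22 samples of the study sit in 2 separate tables. No agent was added to the macrophages that gave the M0-CM.

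The composition of the media limits what the comparison can address. Macrophages were grown from bone marrow of C57BL/6J mice, and the M0-CM was collected from unstimulated cells kept in serum-free medium that contained supernatant of L929 cells, a murine fibroblast line used as a source of the macrophage growth factor CSF1. The filtered supernatant was mixed with an equal volume of complete medium. The control medium was matched for serum only, at 6.5% FBS, and no L929 supernatant is described for it. Products of the macrophages and products of the L929 cells therefore cannot be told apart in these data. The study's methods state in general that experiments used at least 3 biological replicates, but neither they nor the labels say how the 3 samples of a group were obtained or how many spheroids went into a library. The p-values measure the spread between these samples, which may be technical.

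As background, macrophages release cytokines, growth factors, proteases and metabolites, and the blend depends on how they were stimulated. Macrophages polarized with IFNγ and lipopolysaccharide are known for inflammatory products that drive NF-κB, STAT and interferon programs in neighbouring tumor cells, whereas unstimulated macrophages are known more for trophic and scavenging roles. In the core of a spheroid, low oxygen stabilizes the transcription factor HIF1A, which raises glycolytic enzymes and angiogenic factors. The question put to these 6 samples is which of such programs differ when spheroids receive the medium of macrophages that were never polarized.

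The 6 libraries held 58714340 to 78498230 counts over 55487 genes, and 19207 genes passed the filter on low counts and were tested. Control replicate 2 (Ctrl 2) stood apart: it had the largest total but the fewest genes with a count, 19448, against 21189 to 23544 in the other 5. Its log2 profile over the tested genes differed from every other library of the table by a root mean square of 1.24 to 1.71, and Ctrl 1 and M0-CM 1 were the closest pair of all, at 0.853. The distances between a control and an M0-CM library had a median of 1.09, below the median of 1.26 among the 3 control libraries. Many of the results that rest on Ctrl 2 are given with and without it. The macrophage markers Ptprc, Itgam and C1qa had 0 counts in all 6 samples. Of 17 macrophage markers only Lyz2, Cd14 and Cd68 passed the filter, and the summed level of the list was 37.8 to 55.9 CPM (counts scaled to library size) in the controls and 45.2 to 56.2 CPM in M0-CM. Of 10 duct and epithelium markers 6 were tested. The fibroblast list, with 8 of 10 members tested, summed to 1569 to 1953 CPM in the controls, far above the duct list at 278.9 to 477.6 CPM. In bulk samples such as these, fewer cells of a type and less RNA per cell cannot be told apart.

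No gene was called between M0-CM and control by the edgeR quasi-likelihood test, where a gene counts as called if its Benjamini-Hochberg adjusted p is below 0.05 and its log2 fold change exceeds 1 in size. The share called was thus 0% in either direction, and the lowest adjusted p was 0.0886, for Rps26-ps1. At an unadjusted p under 0.05, 412 genes (2.15%) were higher in M0-CM and 157 (0.817%) were lower, so that 72.4% of these genes were higher. With library totals in place of TMM scaling there were 307 higher and 235 lower, or 56.6% higher, and without Ctrl 2 the numbers were 260 and 168, or 60.7%. All 3 M0-CM samples lay above all 3 controls for 1006 genes (5.24%), and below them for 597 (3.11%). With so few samples a group, such separation also arises without any difference, so it describes a gene and is no test. Over all tested genes the median log2 fold change was 0.00, and 49.4% of the genes had a value above 0. DESeq2, which the authors used, called 18 genes higher (0.0825%) and 4 lower (0.0183%) with the 3 groups of the table in the fit. With M0-CM and control alone in the fit it called 21 higher (0.0989%) and 7 lower (0.033%), and 13 genes were called in both fits. The genes named below are therefore described by their values, and none of them passed the main test.

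**Figure D1:**
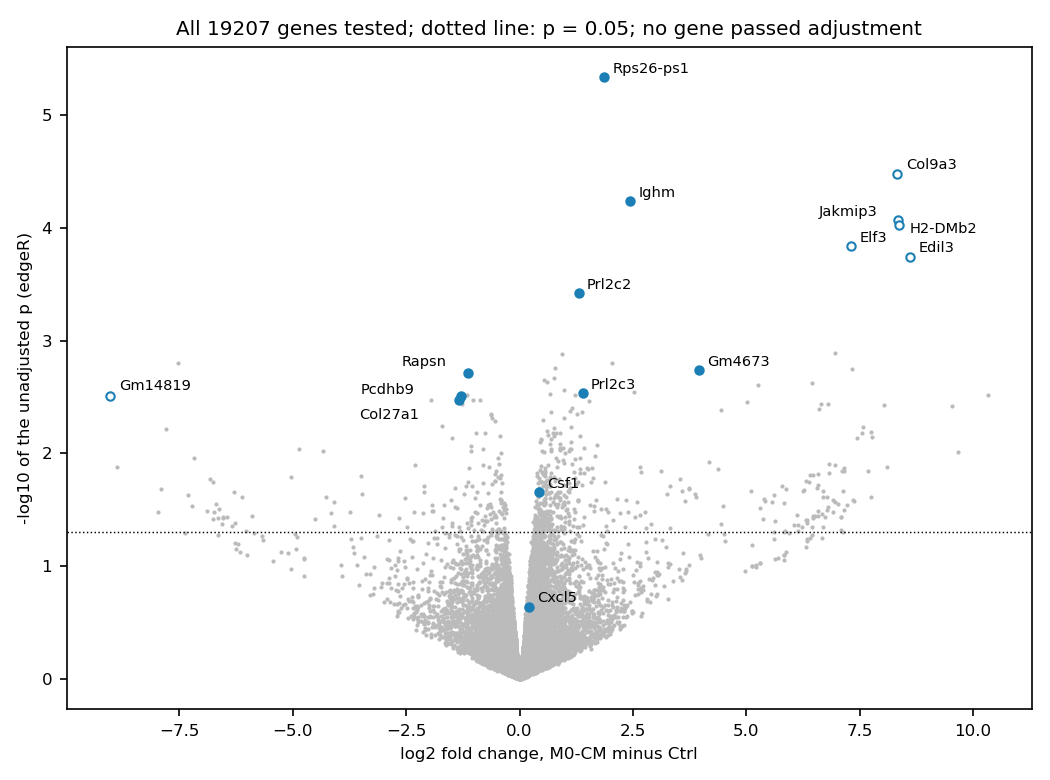
Points are the 19207 genes tested, with the log2 fold change of M0-CM over control on the x axis and the -log10 of the unadjusted p of the edgeR fit on the y axis, where the dotted line stands at the unadjusted threshold of 0.05. Rps26-ps1 has the smallest p, and open circles are genes with at most 3 counts in every library of one group, whose fitted fold change depends on the fit.

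The smallest p belonged to Rps26-ps1, a transcribed processed pseudogene of the ribosomal protein gene Rps26. It lies at chr8:107439131-107439579 (GRCm38, minus strand), inside the span of the ubiquitin ligase gene Wwp2, which is on the plus strand. The controls held 5.49, 4.62 and 4.99 CPM and the M0-CM samples 16.3, 18.4 and 20.2 CPM. The groups were far apart, and each was tight: 5.04 ± 0.434 CPM (SD, n = 3) against 18.3 ± 1.96 CPM (SD, n = 3). The log2 fold change was 1.86 (SE 0.21, edgeR adjusted p = 0.0886) and stayed between 1.78 and 1.94 when any single library was left out. The edgeR adjusted p fell under 0.05 with library totals as the scale (0.0447) and with M0-CM and control alone in the fit (0.0497). DESeq2 called the gene. With a replicate block the edgeR adjusted p was 0.453, and with any single library left out it was 0.11 to 0.803. In M1-CM the level was 6.71, 5.54 and 8.49 CPM, near the controls. The remaining samples of the study include 5 WT spheroid samples without conditioned medium. They belong to the other 2 tables, and the methods give complete medium for such spheroids, not the control medium with 6.5% FBS. They are therefore no second set of controls. By CPM of library totals these 5 samples held 8.04 to 20.8, against 4.64 to 5.71 in the controls here and 16.6 to 18.5 in M0-CM.

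The parent gene and the surrounding gene did not share this pattern. Rps26 stood at 167, 225 and 152 CPM in the controls and 162, 178 and 207 CPM in M0-CM, a log2 fold change of 0.01 (SE 0.21). Wwp2 had a log2 fold change of -0.10 (SE 0.14). When the counts of Rps26 and Rps26-ps1 were summed, the log2 fold change was 0.11. The copies are nearly identical: over the 348 bases of the Rps26 coding sequence, 346 matched (99.4%) with no gap. The first 120 coding bases are shown because reads from this stretch could be assigned to either locus, with the base that differs in capitals (GENCODE M21 transcripts, GRCm38).
Rps26: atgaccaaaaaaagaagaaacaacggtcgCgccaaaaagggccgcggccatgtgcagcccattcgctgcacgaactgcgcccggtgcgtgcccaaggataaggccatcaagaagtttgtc
Rps26-ps1: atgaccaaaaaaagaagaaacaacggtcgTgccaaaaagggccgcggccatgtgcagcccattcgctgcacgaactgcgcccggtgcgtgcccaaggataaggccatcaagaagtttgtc
The count of the pseudogene is uncertain for this reason. Among 162 tested pseudogenes of ribosomal proteins it was the single one with an unadjusted p under 0.05, against 2.15% of all genes higher and 0.817% lower. The median log2 fold change of that list was 0.07, next to 0.04 for 86 genes of cytosolic ribosomal proteins.

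Proliferins were higher in every M0-CM sample than in every control. Proliferins are secreted hormones of the prolactin family, known from growth-stimulated mouse cells and from placenta, where they promote vessel growth. Prl2c2 (chr13:12996125-13005383, GRCm38) stood at 9.52, 6.73 and 8.0 CPM in the controls and at 22.5, 19.3 and 18.1 CPM in M0-CM. Its log2 fold change was 1.30 (SE 0.25, edgeR adjusted p = 0.911). Prl2c3 (chr13:12790816-12800079) stood at 3.21, 2.17 and 2.54 CPM and at 8.28, 6.77 and 5.77 CPM, with a log2 fold change of 1.39 (SE 0.36). Both levels were also high in M1-CM, at 16.8 to 32.4 CPM for Prl2c2 and 4.12 to 11.2 CPM for Prl2c3. By CPM of library totals, the 5 WT spheroid samples of the other tables, in complete medium without conditioned medium, held 9.81 to 38.7 of Prl2c2. The controls here held 6.75 to 9.92 and the M0-CM samples 16.6 to 23 on that scale. For Prl2c3 the ranges were 4.22 to 21.4, 2.18 to 3.34 and 5.3 to 8.47 in the same order.

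The paired proliferin genes cannot be separated with confidence, since their coding sequences of 675 bases match at 672 positions (99.6%). Coding bases 200 to 319 of both are shown because 2 of the 3 differences fall there, in capitals (GENCODE M21, GRCm38, both genes on the minus strand).
Prl2c2: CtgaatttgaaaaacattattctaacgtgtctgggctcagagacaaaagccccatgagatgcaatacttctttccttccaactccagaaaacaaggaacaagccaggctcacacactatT
Prl2c3: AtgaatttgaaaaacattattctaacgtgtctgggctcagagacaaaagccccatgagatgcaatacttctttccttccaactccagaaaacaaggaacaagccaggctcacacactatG
With the counts of Prl2c2, Prl2c3 and Prl2c5 summed, the log2 fold change was 1.33 (SE 0.26, edgeR adjusted p = 1). The remaining 17 of the 19 prolactin family genes in the table had no count in any of the 6 samples.

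Ighm, the constant region of the immunoglobulin mu heavy chain, was read 97, 123 and 111 times in the controls and 454, 633 and 602 times in M0-CM. In CPM the groups were 1.69 ± 0.212 (SD, n = 3) and 9.16 ± 2.19 (SD, n = 3), with no overlap. The log2 fold change was 2.44 (SE 0.36, edgeR adjusted p = 0.363), between 2.33 and 2.63 with any single library left out. M1-CM samples held 9.96, 3.77 and 7.30 CPM. Other antibody genes were hardly read: 390 of 395 immunoglobulin genes had at most 3 counts in each of the 6 samples. Of 9 B cell markers, Ighm included, 6 had no count in any of the 6 samples, and Cd79a and Pax5 reached at most 9 and 16 counts. Ighm exceeded 3 counts in 21 of the 22 samples of the other tables too, with up to 5636 counts.

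Gm4673, annotated as antisense (chr7:30956909-30961619, plus strand), had the largest log2 fold change on the higher side among non-overlapping genes that were read in both groups and whose mean count reached 50. The controls held 59, 77 and 29 counts and the M0-CM samples 1058, 583 and 762. The log2 fold change was 3.96 (SE 0.94, edgeR adjusted p = 1), and the M1-CM samples, whose spread enters this fit, held 49, 71 and 714 counts. With M0-CM and control alone in the fit the edgeR adjusted p was 0.0497. Gm4673 overlaps Lsr, a lipoprotein receptor gene on the opposite strand, and the counts of Lsr ran the other way: 238, 210 and 167 in the controls against 144, 74 and 15 in M0-CM, and 205, 353 and 8 in M1-CM. Whether the counting used the strand of the reads is not given in the sources used here, so a shift of reads between this pair of genes was not tested. Gm4673 also ranged from 31 to 939 counts over the 22 samples of the other tables. A second overlapping predicted gene, Gm10252, lies against the ferritin gene Ftl1 and stood at 78, 90 and 69 counts in the controls and 161, 214 and 388 in M0-CM.

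**Figure D2:**
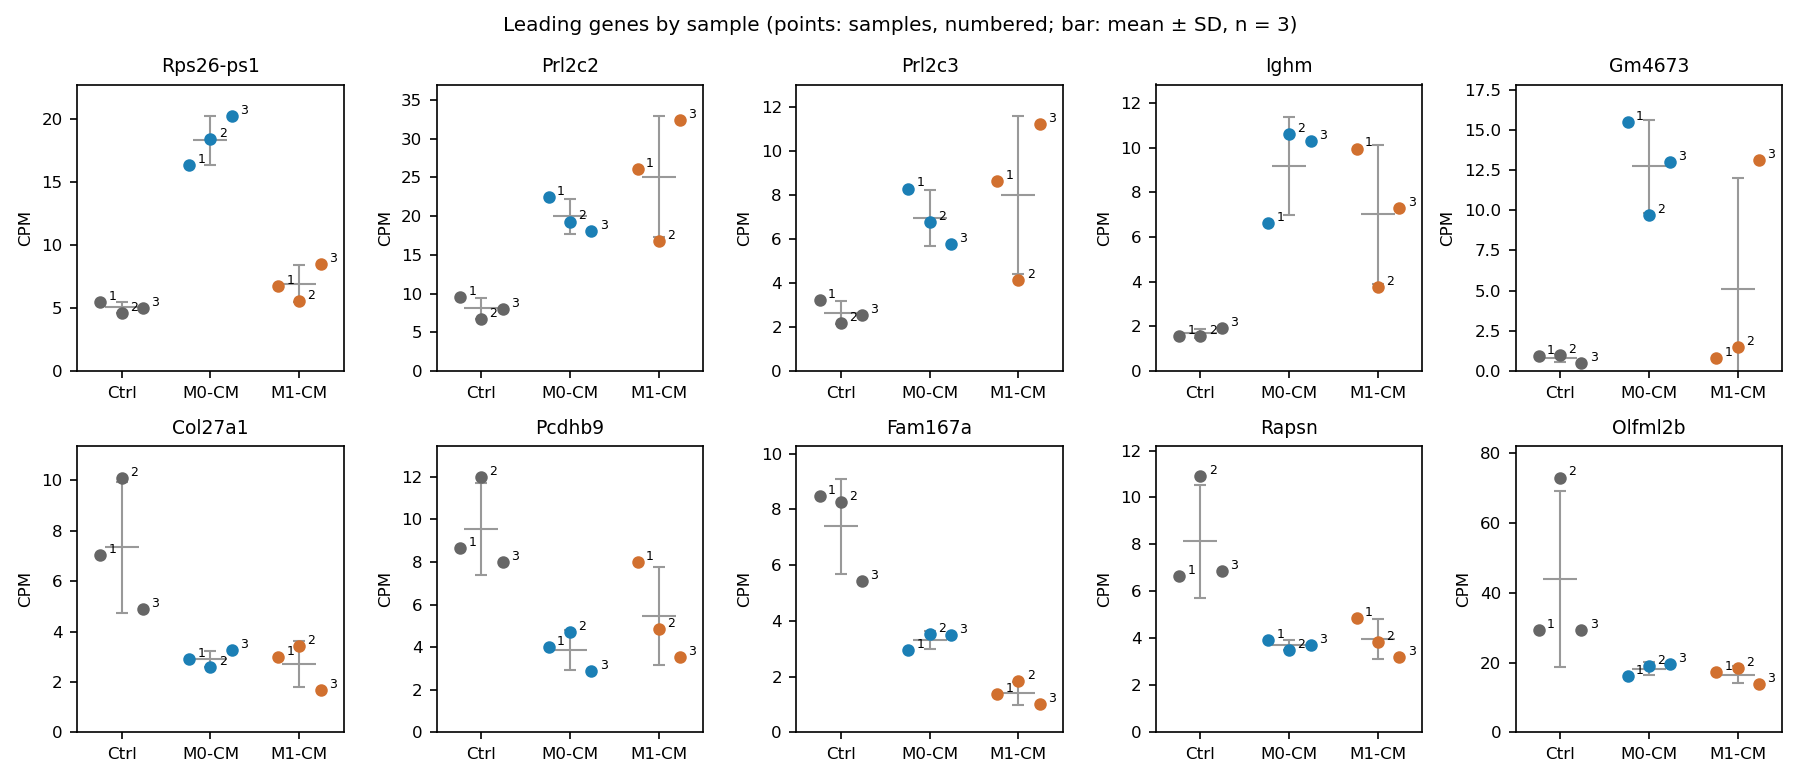
Levels of 10 leading genes in CPM (y axis, from 0) in each of the 9 samples of the table, by group; numbers beside the points are replicate numbers, and the bars give mean ± SD (n = 3). The 5 genes of the upper row lie higher in all 3 M0-CM samples than in all 3 controls, and the 5 of the lower row lie lower, with Ctrl 2 the highest sample for Col27a1, Pcdhb9, Rapsn and Olfml2b.

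Several genes were read in every M0-CM sample but not at all in the controls. Over the table, 36 tested genes (0.187%) had at most 3 counts in each control and more in each M0-CM sample, against 14 (0.0729%) of the opposite kind. Their counts were low, with a median over the 36 genes of 17.8 per M0-CM sample. Col9a3, a chain of the cartilage collagen IX, had 0 counts in each control and 44, 52 and 27 in M0-CM, which is at least 14.2-fold higher against a floor of 3 counts per library. H2-DMb2, a chaperone subunit of MHC class II loading, had 0 in each control and 30, 55 and 39, at least 14.6-fold higher. Edil3, an integrin ligand of the extracellular matrix, had 0 in each control and 35, 88 and 24 (at least 17.2-fold higher). Jakmip3 had 0 in each control and 53, 24 and 47 (at least 14.3-fold higher). Elf3, an epithelial ETS transcription factor, had 0 in each control and 18, 30 and 12 (at least 6.98-fold higher). The edgeR adjusted p of these 5 genes was 0.318 to 0.493. All 5 were also read in each M1-CM sample, where Elf3 reached 99, 109 and 50 counts. The 5 WT spheroid samples of the other tables, in complete medium without conditioned medium, are compared by CPM of library totals. They held 0.617 to 1.11 of Col9a3, against 0.423 to 0.827 in M0-CM, and 0.722 to 1.24 of Elf3, against 0.188 to 0.477. For H2-DMb2 the ranges were 0.418 to 0.764 and 0.449 to 0.875. Edil3 (0 to 1.07) and Jakmip3 (0 to 0.554) were not read in all of them.

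Many of the genes that DESeq2 called were of this kind. Of its 18 genes called higher in the fit of 3 groups, 12 had no control above the floor, and for all 4 genes called lower no M0-CM sample exceeded it. The 6 others called higher were Rps26-ps1, Ighm, Prl2c2, Gm4673, Endou and Klra2. In the fit of M0-CM and control alone, 13 of 21 genes called higher and 1 of 7 called lower were at the floor in the other group. The genes called there that were read in both groups were Rps26-ps1, Ighm, Prl2c2, Prl2c3, Gm4673, Gm10252, Dpf1 and Fabp5 on the higher side. On the lower side they were Col27a1, Pcdhb9, Fam167a, Rapsn, Cntf and Gm49721.

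Cntf has to be read together with Zfp91, which has 2 entries in the table. Zfp91, a zinc finger ubiquitin ligase, has a main entry that spans chr19:12763660-12796126 (GRCm38, minus strand), and Cntf, a neurotrophic cytokine, lies within it at chr19:12763660-12765632. The second Zfp91 entry, whose position is not given here, had 0 counts in each control and 221, 72 and 202 in M0-CM, while Cntf had 423, 323 and 191 counts in the controls and 69, 46 and 95 in M0-CM. The main Zfp91 entry had a log2 fold change of -0.03 (SE 0.14), and with Zfp91 and Cntf summed it was -0.04. Whether reads moved between these entries was not tested.

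When the mean count had to reach 50, the unadjusted p to lie under 0.05 and the groups not to overlap, 254 of the 19207 genes tested were higher and 88 lower. Of the higher ones with the largest fold changes, Pid1, which is known to dampen insulin signalling, stood at 0.355, 0.140 and 0.470 CPM in the controls and 1.55, 3.02 and 0.974 CPM in M0-CM, a log2 fold change of 2.52 (SE 0.64). Il1rap, the accessory chain of the interleukin 1 receptor, stood at 1.40, 1.02 and 1.51 CPM and at 2.25, 5.86 and 3.28 CPM, a log2 fold change of 1.53 (SE 0.40). Fabp5, a fatty acid carrier, stood at 4.26, 1.44 and 2.89 CPM and at 7.77, 10.4 and 7.72 CPM, a log2 fold change of 1.59 (SE 0.53) and 1.26 without Ctrl 2. The glutamate receptor gene Grm5 had a log2 fold change of 1.71 (SE 0.52) and Tph1, which makes the precursor of serotonin, one of 2.38 (SE 0.96).

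Some of these differences leaned on Ctrl 2. Ranbp3l stood at 31.3, 0.787 and 18.9 CPM in the controls and 87.3, 42.6 and 80.6 CPM in M0-CM. Its log2 fold change was 2.05 (SE 0.86), and 1.48 without Ctrl 2. Mettl7b stood at 5.55, 1.05 and 7.55 CPM and at 11.6, 12.5 and 18.2 CPM, with a log2 fold change of 1.58, and 1.09 without Ctrl 2. In both genes the other 2 controls still lay below every M0-CM sample.

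Among the 88 lower genes, Col27a1, a fibrillar collagen, stood at 7.02, 10.1 and 4.91 CPM in the controls and 2.91, 2.59 and 3.25 CPM in M0-CM. Its log2 fold change was -1.33 (SE 0.35), and -1.04 without Ctrl 2. Pcdhb9, a protocadherin of the beta cluster, stood at 8.67, 12 and 8.0 CPM and at 4.02, 4.72 and 2.89 CPM, a log2 fold change of -1.30 (SE 0.33). Fam167a stood at 8.49, 8.27 and 5.43 CPM and at 2.94, 3.52 and 3.50 CPM, a log2 fold change of -1.16 (SE 0.30), and was lower again in M1-CM at 1.39, 1.83 and 1.01 CPM.

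Rapsn, which clusters acetylcholine receptors, had a log2 fold change of -1.13 (SE 0.27), and -0.87 without Ctrl 2. The kainate receptor gene Grik2 had one of -1.95 (SE 0.51). Grik2 stood at 2.31, 1.71 and 4.35 CPM in the controls and 0.541, 0.484 and 1.14 CPM in M0-CM. Olfml2b stood at 29.3, 73.0 and 29.4 CPM in the controls and 16.1, 19.1 and 19.6 CPM in M0-CM. Its log2 fold change was -1.27 (SE 0.33), and -0.70 without Ctrl 2, whose level was the highest. Dok7, an adaptor of the neuromuscular junction, moved from -1.22 to -0.65 in the same way.

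The gene groups were then taken in turn, each as a list of known members. All lists were put together with earlier results of these data known, so their counts are descriptions. Of all genes tested, 49.4% had a log2 fold change above 0. With all samples, HIF targets had the largest median of the pathway and family lists with at least 9 members tested. Without Ctrl 2 or without M0-CM 1 the interferon-stimulated genes, described further on, had a larger one, 0.65 against 0.36 and 0.83 against 0.69. Without Ctrl 1 the acute phase genes did, at 1.31 against 0.93. Of 22 HIF targets 21 were tested, all 21 had a log2 fold change above 0, and the median was 0.64. At an unadjusted p under 0.05, 6 of the 21 were higher and none lower, against 2.15% and 0.817% of all genes. Vegfa, the main angiogenic factor of the list, stood at 271, 119 and 296 CPM in the controls and at 341, 395 and 494 CPM in M0-CM, a log2 fold change of 0.84 (SE 0.32, edgeR adjusted p = 1) and 0.52 without Ctrl 2. Pdk1, which inhibits pyruvate dehydrogenase, stood at 382, 177 and 364 CPM and at 471, 571 and 506 CPM, a log2 fold change of 0.75 (SE 0.26) and 0.46 without Ctrl 2. Bnip3, a mitophagy receptor, stood at 754, 271 and 731 CPM and at 864, 1070 and 1110 CPM, a log2 fold change of 0.79 (SE 0.35) and 0.44 without Ctrl 2. Adm, Stc2 and Mxi1 completed the 6.

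In Vegfa, Pdk1 and Bnip3 every M0-CM sample lay above every control, and Ctrl 2 lay far below the other 2 controls. Ctrl 2 was the lowest of the 6 samples for 20 of the 21 HIF targets. The list summed to 6326, 2218 and 5519 CPM in the controls, 7397, 7160 and 8304 CPM in M0-CM, and 5040, 5565 and 6561 CPM in M1-CM. Without Ctrl 2 the median log2 fold change was 0.36, 20 of 21 members were above 0, and 2 had an unadjusted p under 0.05, against 1.29% of all genes higher in that fit. Leaving out any other library gave medians of 0.57 to 0.93, with 12 members at an unadjusted p under 0.05 without Ctrl 1 (3.56% of all genes) but 1 without M0-CM 3 (1.14%). Hif1a itself had a log2 fold change of 0.35 (SE 0.17, edgeR adjusted p = 1).

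Glycolytic enzymes, many of them HIF targets by textbook knowledge, were likewise lowest in Ctrl 2. Of 19 entries tested 18 had a log2 fold change above 0, the median was 0.58, and 7 had an unadjusted p under 0.05, all higher, against 2.15% of all genes. Eno1 stood at 1770, 1110 and 1620 CPM in the controls and at 2070, 2610 and 2590 CPM in M0-CM, a log2 fold change of 0.69 (SE 0.21, edgeR adjusted p = 1) and 0.50 without Ctrl 2. Ldha, which turns pyruvate to lactate, stood at 1980, 1240 and 2130 CPM and at 2400, 2820 and 2970 CPM, a log2 fold change of 0.61 (SE 0.25) and 0.40 without Ctrl 2. The list summed to 19810, 12890 and 22210 CPM in the controls and to 23380, 29140 and 29630 CPM in M0-CM. In M1-CM it summed to 21020, 15680 and 26580 CPM. Without Ctrl 2 the median was 0.34 and 2 members had an unadjusted p under 0.05 (1.29% of all genes), and without M0-CM 3 it was 0.50 with 1 member (1.14%).

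A common form of the core of the hypoxia response element, to which HIF binds, is ACGTG on either strand. Only this form was looked for, in the 300 bases around the start of each gene, 250 before to 50 after (RefSeq, GRCm38.p6, the most upstream start listed). It occurred in 10 of 17 HIF targets with an entry (58.8%), in 9 of 18 glycolysis genes (50%) and in 19.6% of 27025 genes overall. HIF targets are known in part through this element, so its share among them is no independent observation. Of the 6 HIF targets with an unadjusted p under 0.05 only Bnip3 held ACGTG in this window, and the other 5, Vegfa and Pdk1 among them, did not. As examples of the element, the promoters of the 3 holders with the lowest p are shown with the motif in capitals, although Higd1a and Egln1 had an unadjusted p above 0.05: Bnip3 at chr7:138909457-138909756, Higd1a at chr9:121857747-121858046 and Egln1 at chr8:124949205-124949504, all on the minus strand. In Bnip3 the capitals read the same on both strands and count as a match on each.
Bnip3: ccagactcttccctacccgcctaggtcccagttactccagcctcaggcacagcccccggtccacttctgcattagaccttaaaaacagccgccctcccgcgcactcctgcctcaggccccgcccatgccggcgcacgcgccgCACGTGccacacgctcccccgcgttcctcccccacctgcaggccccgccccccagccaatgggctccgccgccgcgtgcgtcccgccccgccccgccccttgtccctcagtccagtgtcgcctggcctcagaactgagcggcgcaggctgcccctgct
Higd1a: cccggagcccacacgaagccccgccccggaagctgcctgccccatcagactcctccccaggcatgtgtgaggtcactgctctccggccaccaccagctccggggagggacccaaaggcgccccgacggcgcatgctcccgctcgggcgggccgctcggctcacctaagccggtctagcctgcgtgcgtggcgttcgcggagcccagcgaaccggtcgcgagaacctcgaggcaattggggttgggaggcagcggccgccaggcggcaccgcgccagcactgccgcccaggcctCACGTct
Egln1: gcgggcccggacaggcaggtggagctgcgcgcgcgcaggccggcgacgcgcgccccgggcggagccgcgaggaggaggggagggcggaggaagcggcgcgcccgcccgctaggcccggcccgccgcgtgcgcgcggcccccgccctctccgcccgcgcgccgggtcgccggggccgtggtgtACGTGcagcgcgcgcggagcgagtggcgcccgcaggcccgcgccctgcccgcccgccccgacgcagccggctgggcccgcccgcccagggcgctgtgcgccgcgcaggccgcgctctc
A match of 5 letters is a description of the sequence and not a bound site.

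**Figure D3:**
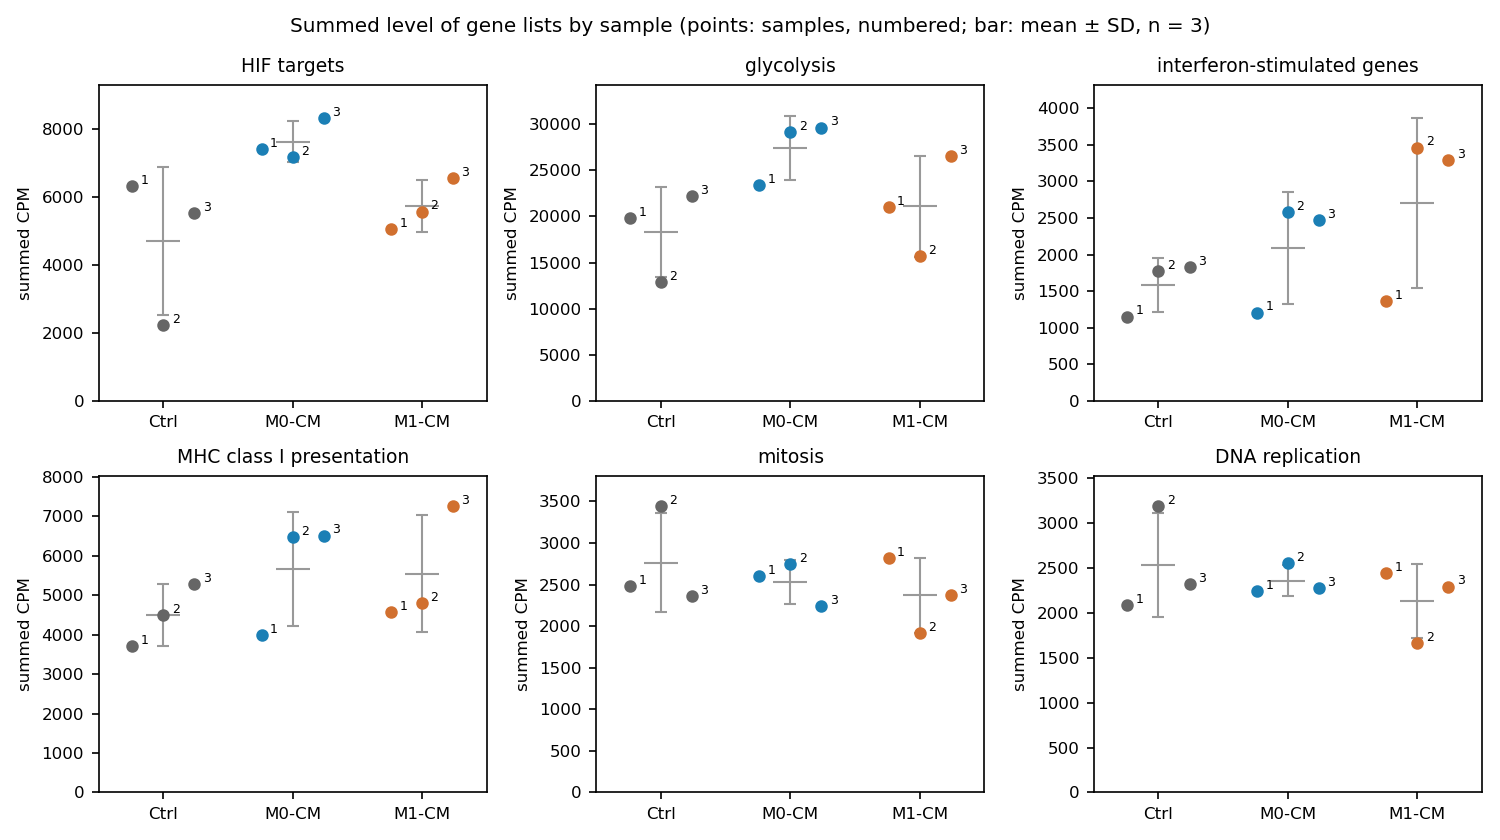
Summed CPM (y axis, from 0) of 6 gene lists in each of the 9 samples, by group; numbers beside the points are replicate numbers, and the bars give mean ± SD (n = 3). Ctrl 2 is the lowest sample for HIF targets and glycolysis and the highest for mitosis and DNA replication, and replicate 1 is the lowest of its group for the interferon-stimulated genes in all 3 groups.

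Interferon-stimulated genes, which restrict viruses and mark interferon signalling, also leaned to the M0-CM side. All 38 were tested, 35 had a log2 fold change above 0 and the median was 0.50. At an unadjusted p under 0.05, 3 were higher and none lower, against 2.15% and 0.817% of all genes. Ifitm3, a membrane restriction factor, stood at 77.8, 92.4 and 87.4 CPM in the controls and at 97.8, 151 and 170 CPM in M0-CM, a log2 fold change of 0.70 (SE 0.24, edgeR adjusted p = 1). Oas1g, an RNA sensor enzyme, stood at 1.49, 2.88 and 3.53 CPM and at 2.06, 16.7 and 17.8 CPM, a log2 fold change of 2.21 (SE 0.90). Isg20, an exonuclease, was the third, with a log2 fold change of 0.90 (SE 0.33) and 0.60 without Ctrl 2.

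The list summed lowest in replicate 1 of every group. It summed to 1207 CPM in M0-CM 1 against 2583 and 2467 CPM in M0-CM 2 and 3, while the controls summed to 1153, 1771 and 1823 CPM. M0-CM 1 thus lay within the range of the controls, above Ctrl 1 and below Ctrl 2 and 3. In M1-CM the list summed to 1370, 3462 and 3287 CPM. Without M0-CM 1 the median was 0.83 and 8 members were higher at an unadjusted p under 0.05 (2.07% of all genes), and over the other single libraries left out it was 0.31 to 0.67. Without M0-CM 3 no member was higher at an unadjusted p under 0.05 (1.14% of all genes). MHC class I presentation genes were lowest in M0-CM 1 of the 3 M0-CM samples for 17 of 18 members, and summed to 3705, 4493 and 5282 CPM in the controls and 3988, 6476 and 6511 CPM in M0-CM. Their median log2 fold change was 0.27, with 14 of 18 above 0 and 1, the immunoproteasome subunit Psmb9, at an unadjusted p under 0.05. Of all genes 49.4% lay above 0 and 2.15% were higher at that level.

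Chemokines, complement and acute phase genes, which inflammatory macrophages are known to induce, were compared next. Cxcl5, the neutrophil chemokine that the study centres on, stood at 78.1, 117 and 107 CPM in the controls and at 119, 117 and 113 CPM in M0-CM. The groups overlapped, and the log2 fold change was 0.21 (SE 0.16, edgeR adjusted p = 1), with values of 663, 719 and 662 CPM in M1-CM beside them. C3, the central complement component, stood at 18.1 to 25.4 CPM in the controls, at 51.3 CPM in M0-CM 1 and at 25.5 CPM or below in the other M0-CM samples. Its log2 fold change was 0.63 (SE 0.37), and 0.13 without M0-CM 1. M1-CM samples held 298, 524 and 256 CPM of it. Lcn2, an iron-binding acute phase protein, was read 0, 11 and 0 times in the controls, 29, 10 and 27 times in M0-CM, and 2728, 3617 and 1433 times in M1-CM.

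As groups, the 7 tested neutrophil chemokine genes had a median log2 fold change of 0.21 and the 12 tested chemokines of monocytes and lymphocytes one of 0.18. The first was -0.02 without M0-CM 1 and 0.03 without Ctrl 3, and the second was 0.00 without Ctrl 2 or without M0-CM 2. At an unadjusted p under 0.05, 1 of the 7 was higher, against 2.15% of all genes, and none of the 12 was. The 11 tested complement genes had a median of -0.10, although C1s1 (0.43, SE 0.19) and C1ra (0.36, SE 0.16) had an unadjusted p under 0.05. Of all genes 2.15% were higher at that level and 0.817% lower. The 11 tested acute phase genes had a median of 0.38, or 0.32 with members at the floor set to their bound, and it was 1.31 without Ctrl 1, 0.88 without Ctrl 3 and 0.71 without M0-CM 2. Of these 11, 2 were higher at an unadjusted p under 0.05 and none lower, against 2.15% and 0.817% of all genes. In every control 3 of the 11 were at the floor. Among 20 NF-κB subunits and targets the median was 0.08, and Nfkbia, the inhibitor that NF-κB induces, was the one with an unadjusted p under 0.05, at 41.2, 42.8 and 53.3 CPM in the controls and 55.6, 67.1 and 74.7 CPM in M0-CM. The 13 genes of the interleukin 6 family had a median of 0.03.

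The growth factor that sustains macrophages was somewhat higher in every M0-CM sample. Csf1 stood at 122, 105 and 104 CPM in the controls and at 153, 146 and 145 CPM in M0-CM, with no overlap. Its log2 fold change was 0.42 (SE 0.16, edgeR adjusted p = 1), between 0.38 and 0.50 with any single library left out. M1-CM samples held 161, 214 and 151 CPM. Il34, the other ligand of the same receptor, had a log2 fold change of 0.13 (SE 0.15). The receptor Csf1r was read 6, 0 and 6 times in the controls and 3, 0 and 11 times in M0-CM, too few to be tested.

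Metabolic lists outside glycolysis had smaller medians. Of 21 tested ATF4 targets, which serve amino acid supply under stress, 20 had a log2 fold change above 0, against 49.4% of all genes. Their median of 0.29 stayed at 0.21 to 0.41 with any single library left out. Ctrl 2 was the lowest of the 6 samples for 13 of the 21. At an unadjusted p under 0.05, 2 members were higher (2.15% of all genes), and none without Ctrl 2 (1.29%). Psat1, an enzyme of serine synthesis, stood at 258, 218 and 275 CPM in the controls and at 359, 331 and 389 CPM in M0-CM, a log2 fold change of 0.52 (SE 0.18). Of 24 genes of cholesterol synthesis and uptake 21 were above 0, with a median of 0.19 and 1 member, Sc5d, at an unadjusted p under 0.05. Among 22 tested genes of fatty acid synthesis and storage the median was 0.23. At an unadjusted p under 0.05, Fabp4, Fabp5 and the desaturase Scd1 were higher there, against 2.15% of all genes. The lipid droplet coat gene Plin4 was lower (0.817% of all genes), with 80.1, 122 and 131 CPM in the controls and 60.2, 83.4 and 74.6 CPM in M0-CM. Of 17 antioxidant genes, Hmox1, the heme oxygenase, stood out with 167, 78.6 and 146 CPM in the controls and 275, 169 and 335 CPM in M0-CM. Its log2 fold change was 0.99 (SE 0.32), and 0.72 without Ctrl 2, while the list had a median of -0.04.

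Proliferation genes gave no difference that held without Ctrl 2. None of the 23 mitosis genes and none of the 37 DNA replication genes had an unadjusted p under 0.05, and both lists had a median log2 fold change of -0.10. All 23 mitosis genes had a value below 0, but Ctrl 2 was the highest of the 6 samples for 21 of them, and without it the medians were 0.09 for mitosis and 0.08 for DNA replication. Mki67, the proliferation marker, had a log2 fold change of -0.18 (SE 0.23). Immediate early genes and feedback genes of the ERK pathway had a median of 0.13 over 21 genes.

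Matrix and adhesion genes were taken next. The 29 tested collagen genes had a median of -0.03. At an unadjusted p under 0.05, 2 were higher and 2 lower, against 2.15% and 0.817% of all genes. Col16a1 was one of the higher ones, at 114, 104 and 117 CPM in the controls and 148, 206 and 177 CPM in M0-CM, a log2 fold change of 0.67 (SE 0.17). The matrix protease Mmp9 stood at 16.8, 16.4 and 9.52 CPM and at 30.7, 26.6 and 28.2 CPM, a log2 fold change of 1.00 (SE 0.42), while its list of 14 had a median of -0.12. Of 41 tested clustered protocadherins 9 were above 0, against 49.4% of all genes. At an unadjusted p under 0.05, 3 (Pcdhb8, Pcdhb9 and Pcdhb10) were lower (0.817% of all genes), and the list median was -0.18. That median was -0.43 without M0-CM 1 and 0.04 without Ctrl 1.

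Ligands of the Wnt family pointed both ways. At an unadjusted p under 0.05, 2 of the 8 tested were higher and 1 lower, against 2.15% and 0.817% of all genes. Wnt7b stood at 10.6, 20.3 and 14.9 CPM in the controls and at 21.7, 43.5 and 33.6 CPM in M0-CM, a log2 fold change of 1.11 (SE 0.30). Wnt9a stood at 1.45, 2.06 and 1.69 CPM and at 0.717, 0.684 and 0.871 CPM, a log2 fold change of -1.19 (SE 0.43). Tgfb3 had a log2 fold change of -0.63 (SE 0.25), and the 15 genes of the TGF-beta list had a median of -0.03. Of these 15, 1 was higher and 1 lower at an unadjusted p under 0.05. Transition factors and adhesion genes of epithelial and mesenchymal cells had a median of 0.01 over 9 tested genes, with none at an unadjusted p under 0.05.

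**Figure D4:**
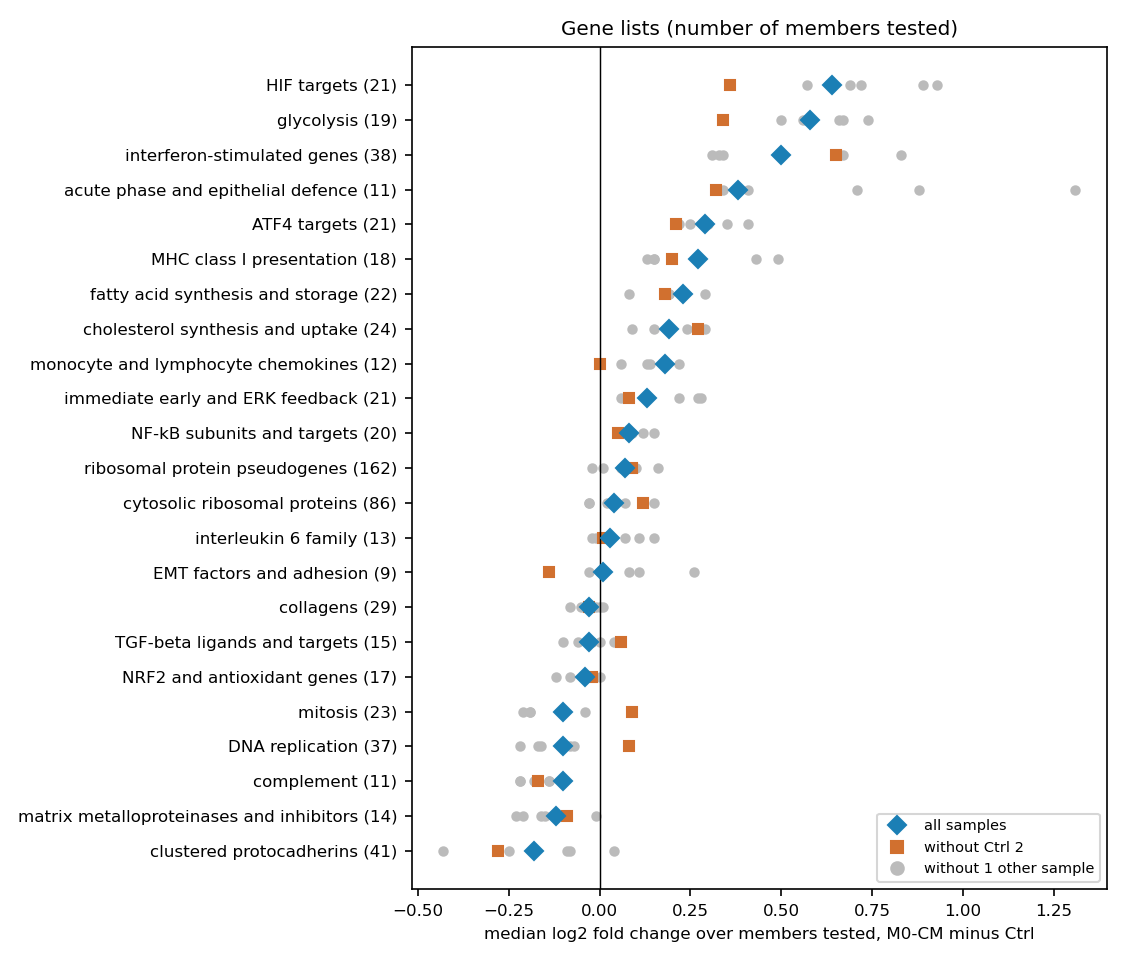
Median log2 fold change of M0-CM over control (x axis) for each gene list with at least 9 tested members, with the number tested in parentheses; diamonds are all samples, squares leave out Ctrl 2 and dots leave out 1 other library. HIF targets and glycolysis have the highest medians with all samples, 0.64 and 0.58, and move to 0.36 and 0.34 without Ctrl 2, below the 0.65 of the interferon-stimulated genes, while the medians of mitosis and DNA replication change sign.

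The study itself lists 26 genes for this comparison, 20 as higher and 6 as lower, and these were chosen on the same samples, so they are not independent evidence of a direction. Of 20 tested entries on the higher side, 19 had an unadjusted p under 0.05 here, the exception being the main Zfp91 entry. On the lower side it was 5 of 6, with Cntf the exception. Their edgeR adjusted p was 0.0886 or more. The study used DESeq2. The DESeq2 fit of M0-CM and control alone called all 20 on the higher side and all 6 on the lower side. Beyond these it called only Fabp5 and Rapsn.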

How the data were processed

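Stranded total RNA libraries of Panc02 spheroids were sequenced in pairs on an Illumina NovaSeq, aligned to GRCm38 with HISAT2 and counted with StringTie by the authors, who deposited whole-number counts per gene for each sample. The annotation release and the step from transcripts to gene counts are not given in the sources used here. Of these counts, the 9 samples of the conditioned media table were fitted with edgeR 4.0.16 (R 4.3.3): genes filtered with filterByExpr by group, TMM scaling, quasi-likelihood test of M0-CM against control, Benjamini-Hochberg adjustment over all genes tested. SE is the absolute log2 fold change divided by the square root of F. CPM are TMM-scaled. Genes with at most 3 counts in every library of a group were treated as at the floor, and folds against them are bounds. Alternatives were DESeq2 1.42.0, other scalings, filters, fold limits, samples in the fit, a replicate block and each library left out. The scripts were tested on simulated data. Groups and replicate numbers came from the labels. The replicate numbers were not taken as pairs, since not every correlation of the deviations of same-numbered samples (0.359, 0.246 and 0.071) exceeded 0.1.

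Genes were named by rule: the genes called in any fit, of those whose mean count reached 50, with an unadjusted p under 0.05 and no overlap, the 12 higher and 8 lower with the largest fold change and 4 predicted genes each way, up to 4 members per list, the genes listed by the study, and near copies. The text uses part of these. The members and lists were chosen with earlier results of these data known. Gene positions are from GENCODE M21 (GRCm38).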

Additional observations from a re-analysis of the deposited data

How the results depend on the processing

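With the edgeR test no gene was called under DESeq2 size factors, without a filter, with at least 10 counts required in every sample, without a fold limit, with a log2 limit of 0.5, or with any single library left out. Library totals in place of TMM gave 1 gene called higher (307 higher and 235 lower at an unadjusted p under 0.05), and M0-CM and control alone in the fit gave 2 (Rps26-ps1 and Gm4673). DESeq2 called 18 higher and 4 lower with 3 groups in the fit, and 21 higher and 7 lower with M0-CM and control alone, and at an unadjusted p under 0.05 it gave 297 and 308 lower genes in these fits against 157. Leaving out single libraries moved the number at an unadjusted p under 0.05 from 229 to 715 higher (412 with all samples) and from 127 to 254 lower (157). The extremes came without M0-CM 3 and Ctrl 1 for higher genes and without M0-CM 2 and M0-CM 1 for lower ones, and without Ctrl 2 there were 260 higher. The fit with a replicate block called 0 genes and gave 463 higher and 153 lower at an unadjusted p under 0.05. The numbers are not shown to pair the samples, although each control correlated best with the M0-CM sample of its own number. The sum of both Zfp91 entries and Cntf had a log2 fold change of -0.04, a value set by the main Zfp91 entry that says nothing of the second entry. With single libraries left out, Cd68 (-0.54 to 0.30), Rps26 (-0.10 to 0.18) and the main Zfp91 entry (-0.09 to 0.04) took either sign. Library totals moved the median of all genes to -0.06 and the ribosomal protein median from 0.04 to -0.03. At these depths a gene with a handful of counts in 1 group could not be measured with precision. The cause of the lost or gained calls was not tested.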
